A study of Homo sapiens with 6 samples.

Results

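The 43 genes described here encode the constitutive proteasome and its helpers, taken from the 12154 genes of the deposited RNA-seq table by their symbols. Every row whose symbol began with PSMA, PSMB, PSMC, PSMD, PSME, PSMF or PSMG and a number was taken, without the inducible immunoproteasome subunits PSMB8, PSMB9 and PSMB10. By symbol they fell into 14 core genes (PSMA and PSMB), 20 cap genes (PSMC and PSMD), 5 activator genes (PSME and PSMF) and 4 assembly genes (PSMG). The rule used symbols and no expression value, although it was set with earlier results of these data known. PSMA8 and PSMB11, the core subunits of testis and thymus, were not analysed here.

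The proteasome degrades proteins that carry ubiquitin chains. Its core particle is a barrel of alpha and beta rings whose inner beta subunits cut the chain, and its cap, the regulatory particle, binds ubiquitin, removes it and threads the unfolded substrate into the barrel. Alternative activators can take the place of the cap, and dedicated chaperones assemble the rings before leaving. When the proteasome is inhibited, human cells raise the mRNA of most of its subunits together through the transcription factor NFE2L1 (also called NRF1), so the genes are known as a co-regulated set.

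The comparison was between 2 groups of 3 libraries, AS-tDR-007333-overexpressed cells (AS-tDR-007333 1, 2 and 3) and NC cells (NC 1, 2 and 3). AS-tDR-007333 is a tRNA-derived fragment (tRF), a small non-coding RNA cut from a tRNA. GEO's labels name A549, a human lung adenocarcinoma line, with the tRF plasmid in the AS-tDR-007333 group, the empty vector in the NC group and Lipofectamine 3000 as the carrier in both. The methods of the study name PC9, a lung adenocarcinoma line with mutant EGFR, for the RNA-seq, so the line behind the libraries was not settled. For the RNA-seq they give transfection with AS-tDR-007333 or NC and name no plasmid, and the supplement lists both as synthesized sequences. The form of the treatment and of its control was therefore not settled either. Both groups are cultures of a single line grown in medium with serum. The tRF has no row in the table, so its level could not be checked against the labels, and the labels do not state whether libraries within a group were separate cultures. The p-values below therefore rest on library-to-library variation alone, part of which may be technical.

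The values were FPKM (fragments scaled to transcript length and to the mapped fragments of the library) and can be compared between genes. The listed FPKM summed to between 197324 and 202921 per library. All 5 epithelial markers looked up (EPCAM, KRT8, KRT18, KRT19 and CDH1) were listed, at 34.6 to 678 FPKM, and all 4 NRF2-driven genes (AKR1B10, AKR1C1, AKR1C2 and NQO1) were at 90.2 to 163 FPKM. None of 3 endothelial markers, 1 of 4 leukocyte markers (CD68) and 1 of 3 fibroblast markers (COL1A1) were listed. CD68 ranged from 11.97 to 16.98 FPKM in AS-tDR-007333 libraries and from 11.3 to 14.8 FPKM in NC libraries, and COL1A1 ranged from 5.71 to 6.04 FPKM in AS-tDR-007333 libraries and from 5.09 to 6.10 FPKM in NC libraries. In RNA of whole cultures, fewer cells of a type and less RNA per cell cannot be told apart.

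No proteasome gene passed the test between AS-tDR-007333 and NC cells. Of the 43 genes, 42 had a mean of at least 1 FPKM and were tested, and the exception was the assembly gene PSMG4. In the limma fit on log2(FPKM + 1) over 11042 genes, 0 of 42 proteasome genes had a Benjamini-Hochberg adjusted p under 0.05, against 7 genes in all, a background of 0.0634%. At an unadjusted p under 0.05, 2 of 42 were higher in AS-tDR-007333 cells (PSMA7 and PSMB2, 4.76%), beside 1.63% of all genes tested, and 0 of 42 were lower, beside 1.98%. This count of 2 became 4 without NC 1 (9.52%, beside 6.79% of all genes in either direction in that fit) and 1 without AS-tDR-007333 1 (beside 3.35%) or without NC 3 (beside 3.76%). A Ballgown-style model (unmoderated, with a term for the library) also gave 0 proteasome genes at an adjusted p under 0.05, and 3 at an unadjusted p under 0.05 (7.14%, beside 8.44% of all genes in that model). Every AS-tDR-007333 library lay above every NC library for 4 of 42 genes (PSMA7, PSMB2, PSMC3 and PSMD8, 9.52%), beside 3.58% of all genes. The reverse held for 2 of 42 genes (PSMD7 and PSMG1, 4.76%), beside 5.18%. Without NC 1, in a comparison of 3 libraries with 2, 13 of 42 proteasome genes had groups apart in either direction (31.0%), beside 25.6% of all genes tested. With 3 libraries against 3, an exact permutation test of a single gene cannot go below a two-sided p of 0.10.

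The fold changes were small and lay on both sides of 0. The median log2 fold change of the 42 genes was 0.02, with a range of -0.25 to 0.24, beside a median of -0.01 over all genes tested. It was 0.02 in the core, 0.01 in the cap, 0.02 in the activators and -0.03 in the assembly genes, and 22 genes had a positive and 20 a negative value. The 95% confidence interval of the fold change lay within 1.5-fold in either direction for 39 of 42 genes (92.9%), beside 89.4% of all genes tested. The 3 exceptions were the core gene PSMB5 and the activator genes PSME3 and PSMF1, whose intervals did not exclude a difference of 1.5-fold. The interval passed 1.5-fold in the lower direction for PSMB5 and PSMF1 and in both directions for PSME3. All 20 cap genes had intervals within 1.5-fold.

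**Figure D1:**
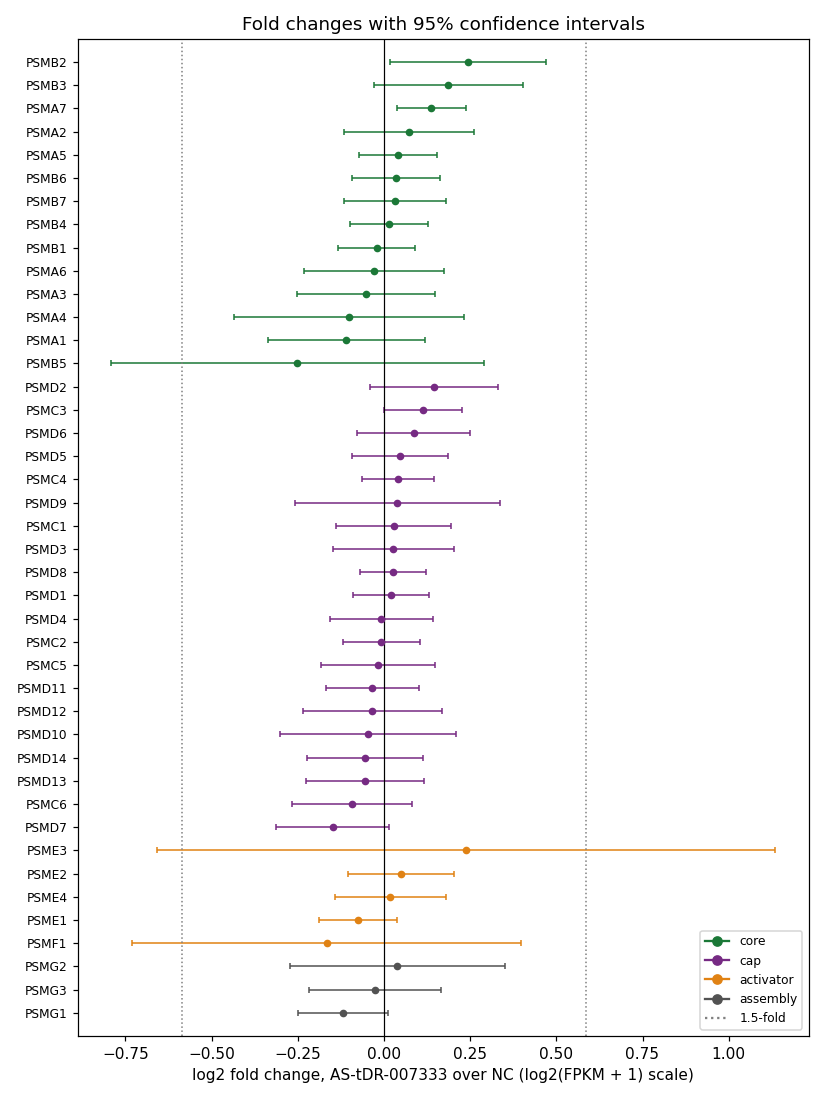
Log2 fold change of AS-tDR-007333 over NC (x axis, log2(FPKM + 1) scale) for the 42 tested proteasome genes, grouped by role class and ordered by fold within it. Points are limma estimates, bars are 95% confidence intervals and dotted lines mark 1.5-fold. Most intervals are narrow and cross 0, and those of PSMB5, PSME3 and PSMF1 pass a dotted line.

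Groups did not overlap for 7 genes, the 6 named above and PSMG4, which was not tested. Shares over the genes tested are given above for the 6, and none was counted for the 7 over all listed genes. The 7 genes were spread over 3 classes, and 6 of them had an entry in the RefSeq promoter table. The 250 bases before the annotated start are shown for these 6, to set the letters of their promoters beside those of all members. Capitals mark matches to TGACNNNGC (the core of the antioxidant response element, which NFE2L1 and NFE2L2 bind with small MAF proteins), CCGGAAG (the ETS core), CCAAT and GGGCGG (the GC box) on either strand. The coordinates are those of GRCh38.p14, with chr1:35641527-35641776 (minus strand) for PSMB2, chr11:47426440-47426689 (minus) for PSMC3, chr16:74296564-74296813 (plus) for PSMD7, chr19:38374321-38374570 (plus) for PSMD8, chr21:39183452-39183701 (minus) for PSMG1 and chr6:3258697-3258946 (plus) for PSMG4. All are written 5′ to 3′ on the strand of the gene.
PSMB2: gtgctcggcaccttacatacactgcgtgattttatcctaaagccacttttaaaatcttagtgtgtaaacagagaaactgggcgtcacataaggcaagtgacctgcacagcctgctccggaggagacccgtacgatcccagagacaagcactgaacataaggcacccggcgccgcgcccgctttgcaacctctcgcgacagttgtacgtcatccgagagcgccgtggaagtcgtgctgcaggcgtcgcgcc
PSMC3: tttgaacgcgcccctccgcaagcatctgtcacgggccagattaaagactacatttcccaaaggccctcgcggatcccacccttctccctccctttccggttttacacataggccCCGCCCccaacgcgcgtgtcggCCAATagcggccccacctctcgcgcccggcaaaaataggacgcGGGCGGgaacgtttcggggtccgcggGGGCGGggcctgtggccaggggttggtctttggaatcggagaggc
PSMD7: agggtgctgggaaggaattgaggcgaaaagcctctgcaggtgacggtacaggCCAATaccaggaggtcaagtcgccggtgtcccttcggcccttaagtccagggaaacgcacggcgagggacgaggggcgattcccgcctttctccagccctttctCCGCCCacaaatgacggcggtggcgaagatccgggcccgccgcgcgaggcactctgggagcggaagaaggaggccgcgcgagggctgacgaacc
PSMD8: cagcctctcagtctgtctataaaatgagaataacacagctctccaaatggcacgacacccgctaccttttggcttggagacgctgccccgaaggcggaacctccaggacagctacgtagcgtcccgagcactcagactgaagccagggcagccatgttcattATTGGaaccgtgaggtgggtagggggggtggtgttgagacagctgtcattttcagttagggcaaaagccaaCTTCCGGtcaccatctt
PSMG1: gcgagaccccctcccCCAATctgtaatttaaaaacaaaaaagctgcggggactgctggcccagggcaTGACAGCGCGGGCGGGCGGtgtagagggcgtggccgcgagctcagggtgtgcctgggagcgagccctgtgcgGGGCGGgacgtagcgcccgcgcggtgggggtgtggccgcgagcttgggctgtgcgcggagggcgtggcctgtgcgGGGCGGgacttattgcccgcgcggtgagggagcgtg
PSMG4: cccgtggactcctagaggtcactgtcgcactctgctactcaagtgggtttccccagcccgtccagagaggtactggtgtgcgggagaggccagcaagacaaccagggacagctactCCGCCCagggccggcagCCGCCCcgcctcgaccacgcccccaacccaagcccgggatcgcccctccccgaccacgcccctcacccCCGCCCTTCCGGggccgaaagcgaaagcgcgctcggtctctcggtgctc

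PSMB2 held none of the 4 motifs in this window. PSMC3 held 3 GC boxes, the nearest 45 bases before the start, and a CCAAT box 114 bases before it. PSMD7 held a CCAAT box at 198 bases and a GC box at 94 bases. PSMD8 held an ETS core 17 bases before the start and a CCAAT box at 88 bases, both on the strand opposite to the gene. On the strand of the gene, shown above, they read CTTCCGG and ATTGG. PSMG1 alone of these 6 genes held the antioxidant response core, 183 bases before the start, where a pair of overlapping GC boxes followed it directly. It also held a CCAAT box at 235 bases and GC boxes at 111 and 36 bases. PSMG4 held 3 GC boxes, the nearest 49 bases before the start and overlapping an ETS core at 44 bases. A match describes these letters and not a bound site.

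Over all members, 37 of 43 genes had an entry in that table. TGACNNNGC was in 12 of the 37 promoters (32.4%), beside 16.1% of the 8669 tested genes with an entry and 13.2% of all 27305 genes of the table. The 12 included the core genes PSMA4 and PSMB3, the cap genes PSMC5, PSMD3 and PSMD12, and the base chaperones PSMD5 and PSMD9. The others were the activator genes PSME1, PSME2 and PSME4 and the assembly genes PSMG1 and PSMG2. CCGGAAG was in 10 (27.0%, beside 20.3% of tested genes), CCAAT in 17 (45.9%, beside 41.5%) and GGGCGG in 25 (67.6%, beside 76.2%). Where a gene had several annotated starts, a match in any of its windows counted, and no test was made of these shares.

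In the core, the alpha ring gene PSMA7 had the smallest unadjusted p of the 42 genes. PSMA7, 1 of the 7 outer-ring subunits that gate the barrel (GRCh37 chr20:60711791-60718496, minus strand), was at 90.9, 91.6 and 95.7 FPKM in AS-tDR-007333 libraries, against 82.4, 85.1 and 85.1 FPKM in NC libraries. All 3 AS-tDR-007333 libraries were above all 3 NC libraries, and the spread within each group was small. Its log2 fold change was 0.14 ± 0.04 (SE), with an unadjusted limma p of 0.015 and an adjusted p of 0.9996.

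PSMB2, a beta subunit with no cutting site (chr1:36065145-36107445, minus strand), was at 43.3, 43.8 and 45.7 FPKM in AS-tDR-007333 libraries and at 34.7, 43.2 and 34.4 FPKM in NC libraries. The groups did not overlap, but NC 2 lay directly below the lowest AS-tDR-007333 library, and NC 1 and NC 3 were well below it. The log2 fold change of 0.24 ± 0.09 (SE) was the highest positive value of the 42 genes and had an unadjusted limma p of 0.038 (adjusted p 0.9996). Without NC 2 the log2 fold change was 0.35 and the adjusted p 0.32, the lowest of any proteasome gene in any setting tried. Without NC 1 it was 0.19, at an unadjusted limma p of 0.11.

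PSMB3, another beta subunit with no cutting site, averaged 69.3 ± 3.42 FPKM in AS-tDR-007333 cells and 61.0 ± 7.05 FPKM in NC cells (SD, n = 3 each). Its groups overlapped, because NC 2 at 68.0 FPKM lay above AS-tDR-007333 3 at 65.7 FPKM.

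The 3 beta genes that encode the cutting sites differed in how far their libraries spread. PSMB7, the trypsin-like subunit, was at 138, 126 and 133 FPKM in AS-tDR-007333 libraries and at 120.4, 134 and 135 FPKM in NC libraries. PSMB6, the caspase-like subunit, was at 73.2, 72.7 and 69.2 FPKM in AS-tDR-007333 libraries and at 74.2, 67.4 and 68.6 FPKM in NC libraries. For both genes the groups overlapped over most of their range, and the log2 fold change was 0.03 (unadjusted limma p 0.62 for PSMB7 and 0.54 for PSMB6). PSMB5, the chymotrypsin-like subunit that proteasome inhibitor drugs bind, was at 19.4, 22.5 and 21.0 FPKM in AS-tDR-007333 libraries and at 19.4, 22.0 and 36.8 FPKM in NC libraries. Here 5 libraries lay close together and NC 3 stood far above them. The log2 fold change of PSMB5 was -0.25 ± 0.22 (SE, unadjusted limma p 0.30) and became 0.02 without NC 3.

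PSMA4, the lowest alpha ring gene, was at 10.5, 14.7 and 12.7 FPKM in AS-tDR-007333 libraries and at 14.6, 14.6 and 11.5 FPKM in NC libraries. High and low libraries occurred in both groups, and the log2 fold change of -0.10 (unadjusted limma p 0.49) became 0.02 without AS-tDR-007333 1. The other 5 alpha ring genes had log2 fold changes between -0.11 (PSMA1) and 0.07 (PSMA2). PSMA1 was at 26.2 FPKM in NC 1 and at 20.4 to 21.6 FPKM in the other 5 libraries. The overlapping same-strand gene AC018523.2 was also highest in NC 1, at 2.27 FPKM, against 0.267 to 1.38 FPKM elsewhere, and its part in the PSMA1 value was not tested.

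In the cap, PSMC3, 1 of the 6 ATPases that unfold the substrate (chr11:47440320-47448024, minus strand), was at 58.9, 60.9 and 56.3 FPKM in AS-tDR-007333 libraries, against 54.2, 55.3 and 53.0 FPKM in NC libraries. The groups did not overlap, at a log2 fold change of 0.11 ± 0.05 (SE, unadjusted limma p 0.051). The other 5 ATPase genes lay between -0.09 (PSMC6) and 0.04 (PSMC4), with overlapping groups.

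PSMD2, a scaffold of the cap base on which ubiquitin-carrying shuttle factors dock, was at 107, 98.2 and 89.5 FPKM in AS-tDR-007333 libraries and at 90.4, 92.0 and 83.6 FPKM in NC libraries. AS-tDR-007333 1 and 2 were above all NC libraries and AS-tDR-007333 3 was not. Its log2 fold change of 0.15 ± 0.08 (SE, unadjusted limma p 0.10) was the highest of the cap. PSMD1, the other large scaffold, and PSMD4, a ubiquitin receptor, had log2 fold changes of 0.02 and -0.01.

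The lid of the cap holds the deubiquitinase. Of its 8 genes, PSMD7 was lower and PSMD8 higher without overlap of the groups, and the other lid genes overlapped. Over all genes tested, 5.18% were lower and 3.58% higher without overlap. PSMD7, the partner of the deubiquitinase PSMD14 (chr16:74330673-74340186, plus strand), was at 32.5, 33.4 and 28.8 FPKM in AS-tDR-007333 libraries, against 36.1, 33.6 and 35.5 FPKM in NC libraries. The gap between the groups was narrow, between AS-tDR-007333 2 and NC 2. Its log2 fold change of -0.15 ± 0.07 (SE, unadjusted limma p 0.069) was the lowest of the cap.

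PSMD8, another lid subunit (chr19:38865176-38874464, plus strand), was at 40.6, 41.0 and 40.5 FPKM in AS-tDR-007333 libraries and at 39.5, 40.3 and 40.1 FPKM in NC libraries. The groups did not overlap, yet the log2 fold change was small, at 0.03 ± 0.04 (SE, unadjusted limma p 0.54), and all 6 values lay close together. The SE and p rest on a variance moderated over all genes tested. The Ballgown-style model, without moderation, gave an unadjusted p of 0.24. The within-group standard deviation of PSMD8 was exceeded by that of 99.9% of all genes tested. PSMD14 itself had a log2 fold change of -0.05, and the other 5 lid genes lay between -0.06 (PSMD13) and 0.09 (PSMD6).

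PSMD9, a chaperone that helps assemble the ATPase ring and is not in the finished complex, was the lowest cap gene. It was at 2.69, 3.14 and 3.54 FPKM in AS-tDR-007333 libraries and at 2.69, 3.67 and 2.71 FPKM in NC libraries. The groups covered nearly the same range, and the log2 fold change was 0.04 ± 0.12 (SE, unadjusted limma p 0.76). PSMD5 and PSMD10, chaperones of the same step, had log2 fold changes of 0.05 and -0.05.

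Among the activators, PSME1, which forms the interferon-inducible PA28 ring with PSME2, was at 48.1, 45.6 and 45.7 FPKM in AS-tDR-007333 libraries and at 49.8, 47.2 and 49.9 FPKM in NC libraries. Only AS-tDR-007333 1 reached into the NC range, and the log2 fold change was -0.07 ± 0.05 (SE, unadjusted limma p 0.16). PSME2 and the PA200 gene PSME4 had log2 fold changes of 0.05 and 0.02.

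PSME3, which forms the nuclear PA28 ring (chr17:40976402-40995775, plus strand), was at 13.2, 19.4 and 14.3 FPKM in AS-tDR-007333 libraries and at 16.9, 18.9 and 6.60 FPKM in NC libraries. NC 3 was far below the other 5 libraries, which overlapped. The log2 fold change was 0.24 ± 0.37 (SE, unadjusted limma p 0.54), and without NC 3 it was -0.20. BECN1, which overlaps PSME3 on the opposite strand, was at 6.39 FPKM in NC 3 and between 5.40 and 7.72 FPKM in the other libraries. The part of BECN1 in the PSME3 value was not tested.

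PSMF1, the proteasome inhibitor PI31 (chr20:1093906-1170059, plus strand), was at 8.10, 12.4 and 7.60 FPKM in AS-tDR-007333 libraries and at 12.1, 7.54 and 12.2 FPKM in NC libraries. The 6 values formed a lower and an upper level with nothing between them, and both levels occurred in both groups. AS-tDR-007333 2, NC 1 and NC 3 were at the upper level. The log2 fold change was -0.17 ± 0.23 (SE, unadjusted limma p 0.50).

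**Figure D2:**
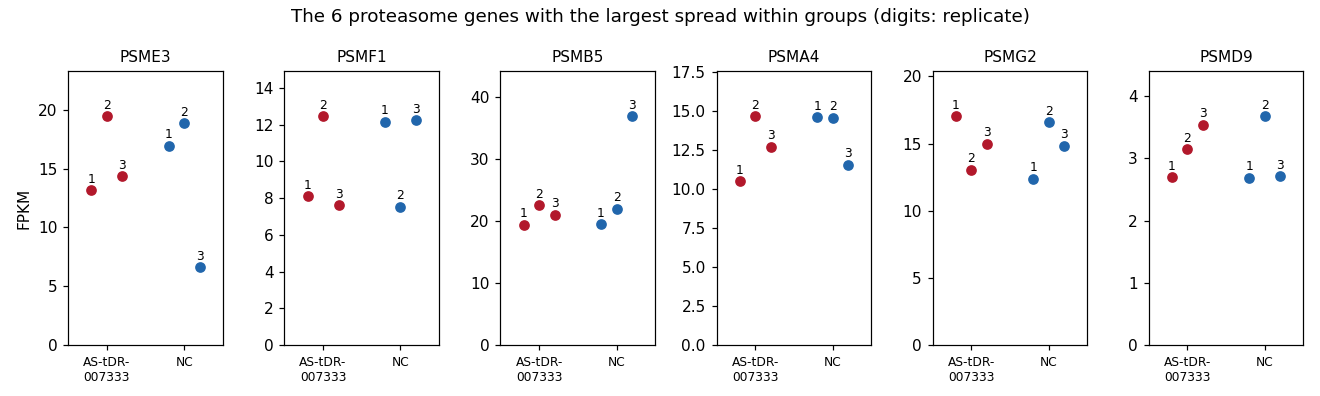
FPKM (y axis, from 0) of the 6 proteasome genes with the largest standard deviation within groups, in AS-tDR-007333 libraries (red) and NC libraries (blue), with the replicate number beside each point. PSMB5 and PSME3 have NC 3 apart from the other libraries at 36.8 and 6.60 FPKM, and PSMF1 lies at 2 levels in both groups.

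The assembly genes encode chaperones that build the alpha ring. PSMG1 (chr21:40546695-40555777, minus strand) was at 5.70, 5.92 and 6.001 FPKM in AS-tDR-007333 libraries, against 6.36, 6.72 and 6.32 FPKM in NC libraries. All 3 AS-tDR-007333 libraries were below all 3 NC libraries, at a log2 fold change of -0.12 ± 0.05 (SE, unadjusted limma p 0.068, adjusted p 0.9996).

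PSMG4 (chr6:3231637-3303607, plus strand), which was below the filter and not tested, was at 0.851, 0.895 and 1.002 FPKM in AS-tDR-007333 libraries and at 1.10, 1.04 and 1.10 FPKM in NC libraries. Its groups did not overlap either, at a mean of 0.998 FPKM, the lowest of the 43 genes. PSMG4 overlaps the listed genes SLC22A23 and TUBB2B on the opposite strand, and their part in its value was not tested. PSMG2, the obligate partner of PSMG1, was at 17.02, 13.1 and 14.96 FPKM in AS-tDR-007333 libraries and at 12.4, 16.6 and 14.9 FPKM in NC libraries. PSMG3, the partner of PSMG4, was at 15.8, 16.3 and 15.9 FPKM in AS-tDR-007333 libraries and at 14.5, 16.99 and 17.7 FPKM in NC libraries. The NC range enclosed the AS-tDR-007333 values of PSMG3, and the log2 fold changes of PSMG2 and PSMG3 were 0.04 and -0.03 (unadjusted limma p 0.77 and 0.75).

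Levels differed far more between proteasome genes than between the groups. Averaged over the 6 libraries, the 43 genes ran from 0.998 FPKM (PSMG4) to 131 FPKM (PSMB7), although the core and the cap hold most of their subunits in equal copies. The 7 alpha ring genes ran from 13.1 FPKM (PSMA4) to 88.5 FPKM (PSMA7), a ratio of 6.75. The 3 cutting subunits ran from 23.5 FPKM (PSMB5) over 70.9 FPKM (PSMB6) to 131 FPKM (PSMB7), a ratio of 5.58. The other 4 beta genes were the most even role group of 3 or more, between 40.9 FPKM (PSMB2) and 65.2 FPKM (PSMB3), a ratio of 1.59.

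In the cap, the 6 ATPase genes ran from 12.2 FPKM (PSMC1) to 56.4 FPKM (PSMC3), a ratio of 4.61. The 8 lid genes ran from 7.87 FPKM (PSMD6) to 40.3 FPKM (PSMD8), a ratio of 5.13. PSMD2 at 93.5 FPKM was the highest cap gene, and PSMD1, the other scaffold, was at 36.8 FPKM. The chaperones of the base stood at 3.08 FPKM (PSMD9), 17.6 FPKM (PSMD5) and 25.1 FPKM (PSMD10). In GENCODE 44, 17 of the 43 genes have named pseudogenes, 44 in all, with 13 of PSMC1, 6 of PSME2 and 4 of PSMA6, so the levels of these genes are uncertain where reads of copies were split.

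**Figure D3:**
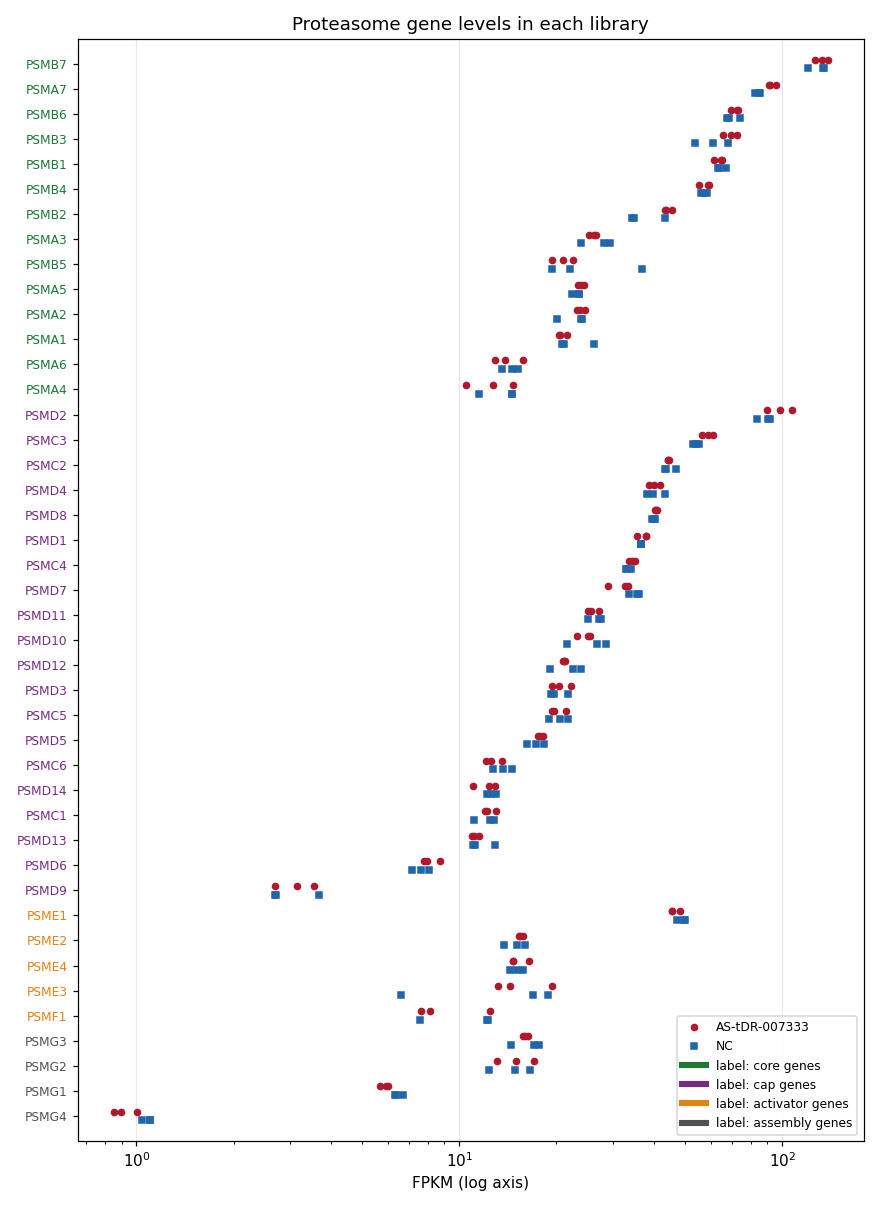
FPKM (x axis, log scale) of the 43 proteasome genes in each AS-tDR-007333 library (red circles, upper row of a gene) and NC library (blue squares, lower row), with gene names coloured by role class and ordered by mean level in each class. The genes span 0.998 to 131 FPKM on average, and the symbols of the groups overlap for most genes.

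Summed by class, the core held 48.3% of the members' FPKM, the cap 41.5%, the activators 7.49% and the assembly genes 2.77%. The core sum was 674 ± 5.37 FPKM in AS-tDR-007333 cells and 654 ± 24.1 FPKM in NC cells (SD, n = 3 each), a ratio of 1.03. NC 1 had the lowest core sum of the 6 libraries at 626 FPKM, against 667 to 678 FPKM in the others. The cap sum was 575 ± 14.4 FPKM in AS-tDR-007333 cells and 565 ± 7.82 FPKM in NC cells, a ratio of 1.02. The activator sum was 102 ± 4.61 FPKM in AS-tDR-007333 cells and 104 ± 4.41 FPKM in NC cells, and the assembly sum was 37.8 ± 1.57 FPKM in AS-tDR-007333 cells and 38.5 ± 3.71 FPKM in NC cells. In each of the 4 classes the libraries of the groups overlapped.

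**Figure D4:**
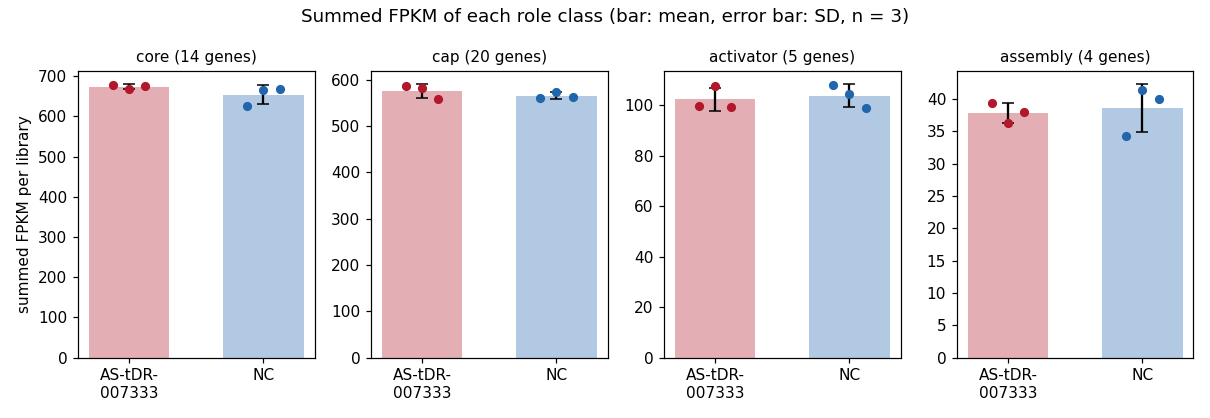
Summed FPKM per library (y axis, from 0) of the core, cap, activator and assembly genes in AS-tDR-007333 (red) and NC (blue) cells. Bars are means, error bars are SD (n = 3) and points are libraries in the order of their replicate number. The core point of NC 1, at 626 FPKM, is the lowest.

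Together the 43 genes made up 0.691%, 0.697% and 0.690% of the listed FPKM in AS-tDR-007333 libraries and 0.668%, 0.703% and 0.679% in NC libraries. NC 1 was the lowest and NC 2 the highest, so the NC range enclosed the AS-tDR-007333 values. NC 1 held the lowest value of 17 of 43 genes, against 2 to 9 in each other library, and NC 3 held the highest value of 11. The same counts were not made over all genes tested. The median deviation of the members from their mean in NC 1 was -0.04 on the log2 scale, beside 0.02 over all genes tested. More than 0.2 from the mean in NC 1 were 8 members, against 2 to 4 in each other library, and 16.7% of all genes tested, against 11.2 to 12.6% in the others. Without NC 1 the median log2 fold change of the proteasome genes was -0.01.

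**Figure D5:**
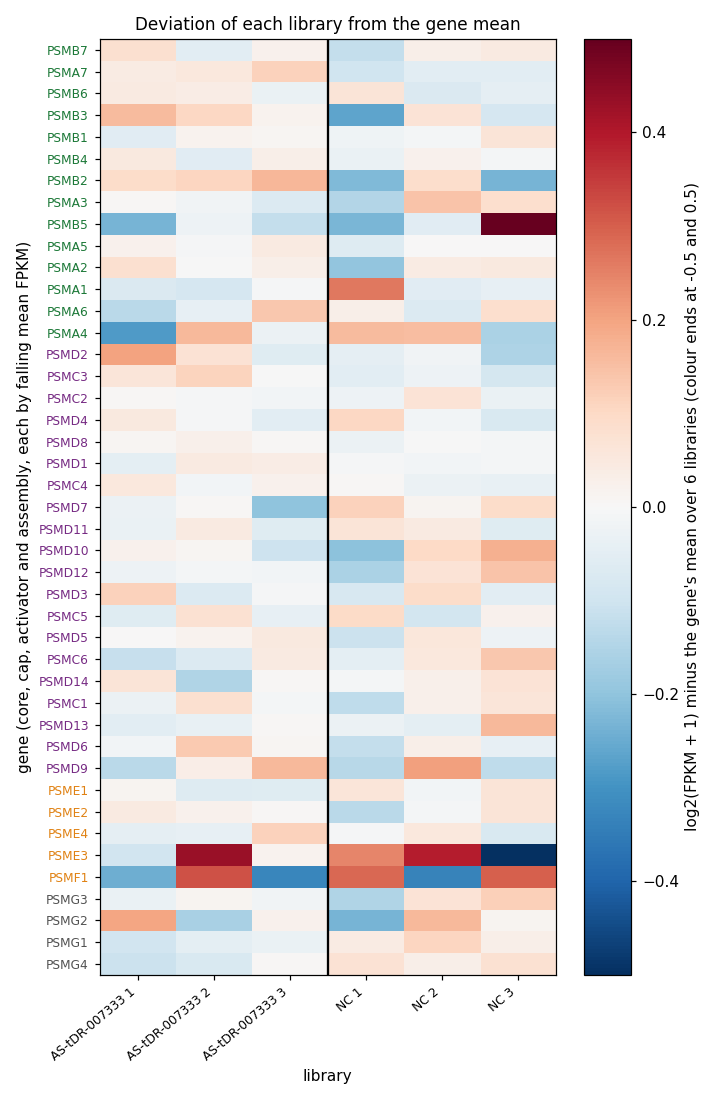
Deviation of log2(FPKM + 1) from the mean of the gene over 6 libraries (colour, ends at -0.5 and 0.5) for the 43 proteasome genes (rows, by role class and falling mean level) in AS-tDR-007333 libraries (left 3 columns) and NC libraries (right 3 columns). The deepest colours are those of PSMB5, PSME3, PSMF1 and PSMA4. NC 1 holds the lowest value of 17 genes, a count not made over all genes tested.

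Most proteasome genes varied less between libraries of a group than the median gene tested. The genes compared were not matched for level, and the median level of the 43 members was 23.2 FPKM. The median within-group standard deviation on the log2 scale was 0.083 over the 42 genes and 0.098 over all genes tested, and 16 of 42 members lay above the median of all genes. In 3 of 42 genes (PSMB5, PSME3 and PSMF1) the highest library was at least 1.5 times the lowest, beside 20.01% of all genes tested, which counts genes with a library at 0. The spread of PSME3 was exceeded by 2.26% of genes tested, that of PSMF1 by 5.81% and that of PSMB5 by 6.23%. At the other end stood PSMD8, PSMC4, PSMA5 and PSMA7, whose spread was exceeded by 99.9%, 97.9%, 96.5% and 96.3% of genes.

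The inducible subunits replace PSMB5, PSMB6 and PSMB7 in the immunoproteasome. PSMB8 stood at 117%, 94.6% and 95.01% of the FPKM of PSMB5, its counterpart, in AS-tDR-007333 libraries and at 114%, 100.1% and 58.0% in NC libraries. The low value was that of NC 3, the library in which PSMB5 was high. PSMB9 was at 4.80 to 6.22% of PSMB6 and PSMB10 at 5.84 to 7.998% of PSMB7. The log2 fold changes of the inducible genes were -0.03 (PSMB8), 0.05 (PSMB9) and -0.15 (PSMB10, unadjusted limma p 0.070).

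No gene of the related lists of the pathway passed the test either. Of 13 other cap and assembly proteins, 12 shuttle factor and p97 genes, 7 genes of the NFE2L1 axis and 6 ubiquitin and E1 genes, 0 had an adjusted p under 0.05 in limma and 0 an unadjusted p under 0.05. Their median log2 fold changes were 0.01, -0.02, -0.01 and 0.04. Of these 38 genes, 2 had groups that did not overlap, both lower in AS-tDR-007333 cells (5.26%, close to the 5.18% of all genes tested). They were UCHL5, a deubiquitinase of the cap, and NSFL1C, a p97 cofactor, at log2 fold changes of -0.15 and -0.08 (unadjusted limma p 0.088 and 0.13). NFE2L1 itself was at 18.6, 9.19 and 16.9 FPKM in AS-tDR-007333 libraries and at 19.3, 11.1 and 16.6 FPKM in NC libraries. In both groups replicate 1 was highest and replicate 2 lowest, and whether NFE2L1 follows the replicate number was not tested. Its log2 fold change was -0.09 ± 0.30, with an SE from the fit that takes no account of the number.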

How the data were processed

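RNA of 3 AS-tDR-007333 and 3 NC libraries, made with a stranded kit, was sequenced on an Illumina HiSeq 4000. The authors deposited FPKM per gene. Their methods name StringTie for trimming, HISAT2 for mapping to GRCh37 and Ballgown for FPKM, and HISAT2 2.0.5 and featureCounts 1.5.0-p3 appear in the submitters' processing notes. Use of the strand in counting was not given in the sources used here. By position, 11 of the 43 genes overlap a listed gene on the opposite strand and 2 on the same strand. Genes averaging under 0.5 FPKM in both groups are not in the table. FPKM gives no counts, so the depth per library and the counting error are unknown.

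From the deposited FPKM, log2(FPKM + 1) was compared with limma 3.58.1 (R 4.3.3, moderated variances with a trend) over the 11042 genes averaging 1 FPKM or more, with Benjamini-Hochberg adjustment and a threshold of 0.05. A fold change on this scale understates that of low genes. The fit was tested on simulated data with known folds of 1.5 or more. This does not show how the fit behaves at folds as small as those estimated for the proteasome genes. Members, lists and tests were chosen with earlier results of these data known. Values per library are given for genes with an unadjusted p under 0.05 or groups that do not overlap, for PSMB5, PSMB6 and PSMB7, and for the genes highest and lowest in level or fold change in each class. PSMA1, PSMB3 and the overlapping genes were added after their values were seen. Motifs were searched in 250 bases before each start in RefSeq promoters of GRCh38.p14, and pseudogenes were taken from GENCODE 44. Results were recomputed with a pseudocount of 0.1, without a filter, with a filter at 5 FPKM, with median-of-ratios rescaling, with a Ballgown-style model (a library term, no moderation), with limma without its trend, with the replicate number as a block, and without each library in turn. Tools were Python 3.11.15, pandas 2.3.3, numpy 2.4.6 and matplotlib 3.10.9.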

Additional observations from a re-analysis of the deposited data

How the results depend on the processing

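The number of proteasome genes called was 0 in the fit reported and in all 13 alternatives that were fitted. Calls over all genes, 7 in the fit reported, were 0 under the Ballgown-style model (932 genes had an unadjusted p under 0.05 there), and 1 to 18 when 1 library was left out, with 1 call without NC 3 and 18 without NC 1. The Ballgown-style model gave a median log2 fold change of -0.0074 for the proteasome genes, -0.024 for the activators and -0.12 for the assembly genes, and turned the sign of PSMA4 (0.014), PSMB7 (-0.043) and PSMG2 (-0.12). With 1 library left out, 1 to 4 proteasome genes had an unadjusted p under 0.05 in limma (2.33 to 9.52%, beside 3.21 to 6.79% of all genes, both highest without NC 1), with 1 without AS-tDR-007333 1 or NC 3 and 4 without NC 1. In the same comparisons 8 to 13 proteasome genes had groups that did not overlap (19.0 to 31.0%, beside 16.4 to 25.6% of all genes), against 6 (14.3%, beside 8.76%) with all libraries. Over the same fits the median log2 fold change ranged from -0.0096 to 0.021 for the proteasome genes, from -0.0069 to 0.035 for the core, from -0.0079 to 0.021 for the cap, from -0.059 to 0.049 for the activators and from -0.11 (without NC 1) to 0.028 (without NC 3) for the assembly genes, so the sign of each of these medians turned in at least 1 fit. The sign turned in at least 1 of them for PSMA4 (-0.21 to 0.016), PSMB5 (-0.43 to 0.017), PSMB7 (-0.021 to 0.066), PSMD9 (-0.032 to 0.15), PSME3 (-0.20 to 0.49), PSMG2 (-0.067 to 0.13) and PSMG3 (-0.11 to 0.028), and the cause was not tested. PSMB2 stayed positive in all settings, from 0.19 to 0.35, and PSMA7 from 0.11 to 0.15.

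Over all genes tested, libraries with the same replicate number did not deviate together (correlations over genes of -0.01, 0.01 and -0.01). Only AS-tDR-007333 2 correlated best with its own number. The fit reported therefore used the numbers as names and not as pairs. These correlations cannot show whether a subset of genes follows the number, and this was not tested. NFE2L1 had its highest value in replicate 1 and its lowest in replicate 2 of both groups. With the replicate block in limma, 1 gene was called over all genes, 0 proteasome genes were called and 1 proteasome gene had an unadjusted p under 0.05. The FPKM values give no counts, so precision rests on 3 libraries a group, and the numbers above cover only the spread between these libraries. In the limma fits the variance of a gene was moderated by that of the other genes tested. An SE or p-value from limma therefore does not rest on the spread of that gene alone.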
